A study of Mus musculus with 2 samples.

Results

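The genes described here are 10 members of the AP-1, Egr and immediate early class, namely Fos, Fosb, Jun, Junb, Jund, Egr1, Nr4a1, Ier2, Dusp1 and Gadd45b. They were chosen by name among the gene probes of the arrays, by a rule that uses no measured value although earlier results of these data were known, and make up 10 of the 27597 genes and 13 of the 41174 gene probes. The array names 12 of these probes as a member. The remaining probe is called Jund1 on the array and was assigned to Jund through its RefSeq accession. On each array the 13 probes filled 31 spots, of which Fos and Jun had 10 each.

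CD8+ T cells of the genotype Bcl11bF/F/dLck-iCre, where Cre under the distal promoter of Lck deletes a floxed Bcl11b in T cells, were compared with CD8+ T cells from wild type mice. All mice had been infected with Listeria monocytogenes-OVA, a bacterium carrying ovalbumin, and cells were taken at day 6 by negative selection, which removes other cells and leaves the T cells untouched. Each of 2 arrays, biological replicates 1 and 2, held deficient RNA in Cy5 and wild-type RNA in Cy3. Because the dyes were never exchanged, an effect of the dye and an effect of genotype cannot be told apart, and both arrays lay on 1 slide with 1 scan. The number of animals behind a sample, their age and any pooling were not given in the sources used here. The p-values of genes rest on these 2 samples only. They set each gene's mean against 1 variance estimated over all genes tested, not against that gene's own spread. Bcl11b, the targeted gene, had log2 ratios of deficient over wild type at its brighter probe of -0.69 on replicate 1 and -2.95 on replicate 2 (mean -1.82 ± 1.60, SD, n = 2, limma adjusted p = 6.55e-04). Its other probe, at which the deficient channel did not clear background on either array, had ratios of -1.09 and -2.03. Whether these probes lie in the deleted part was not given in the sources used here.

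Immediate early genes are transcribed within minutes of a stimulus from transcription factors already present in the cell, without new protein synthesis. Fos and Jun family proteins pair through leucine zippers to form AP-1, which in T cells acts with NFAT downstream of the antigen receptor, and Egr1 is induced through the MAP kinase pathway. Dusp1 dephosphorylates MAP kinases and so limits the same signal.

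Among these genes, Gadd45b was higher in deficient cells and passed the test, by 2.87-fold. Egr1, Jund, Nr4a1 and Dusp1 had positive ratios on both arrays without passing. Fos and Fosb had opposite signs on the 2 arrays, as did Junb close to 0, and Ier2 was below 0 on both. Jun was too dim to be tested. Of the 9 members tested, 1 was called higher and 0 were called lower (limma, Benjamini-Hochberg adjusted p under 0.05 over all 9931 genes tested), where 3.67% of all genes were called higher and 5.97% lower. At an unadjusted p under 0.05 the members numbered 3 higher (Gadd45b, Egr1 and Jund) and 0 lower, where 7.58% of all genes were higher and 14.3% lower by limma. At the level of probes, 1 of 11 tested was called higher and 0 lower, against 2.73% and 4.87% of all 12622 probes tested.

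A ratio here is the log2 of deficient over wild-type signal after background correction and loess normalisation. A probe was tested if, on each of the 2 arrays, the deficient or the wild-type channel, the same on both, stood well above background. The brightest probe stood for its gene. The limma fit gave every gene the same standard error of 0.42 and a 95% confidence interval of 0.82 to either side of the mean, so that no gene with a mean below 1.18 in size was called.

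**Figure D1:**
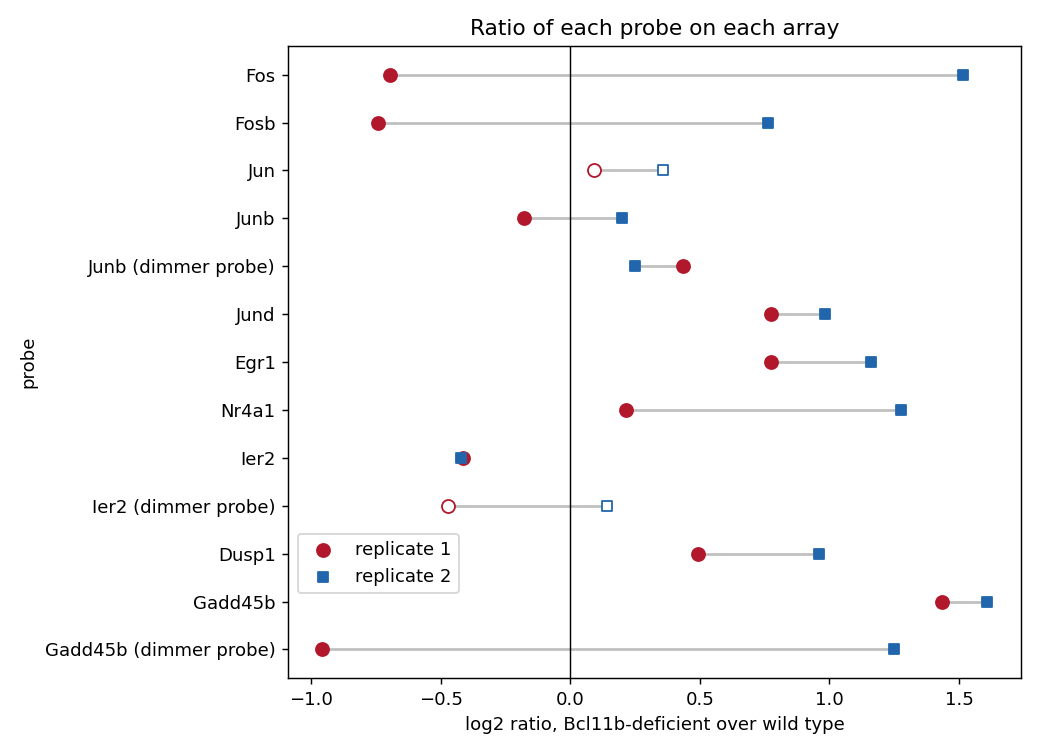
Log2 ratio of deficient over wild-type signal (x axis) for every probe of the 10 genes (rows), with circles for replicate 1 and squares for replicate 2. Filled symbols are probes that were tested and open symbols those that were too dim; the brighter Gadd45b probe lies at 1.43 and 1.61, while Fos lies at -0.70 and 1.52.

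The sequences before the transcription start of 4 members are shown because Fos, Nr4a1, Dusp1 and Gadd45b differ in which classical response elements they hold. RefSeq's table of starts (GRCm38.p6) matched 8 of the 10 members, all but Egr1 and Ier2. The windows are Fos, chr12:85473640-85473889 on the plus strand, Nr4a1, chr15:101266596-101266845 on the plus strand, Dusp1, chr17:26508473-26508722 on the minus strand, and Gadd45b, chr10:80929841-80930090 on the plus strand. Each is 250 bases, read 5′ to 3′ towards the start. Capitals mark the CRE, its core TGACG, the Egr site and the TATA box on either strand.
Fos: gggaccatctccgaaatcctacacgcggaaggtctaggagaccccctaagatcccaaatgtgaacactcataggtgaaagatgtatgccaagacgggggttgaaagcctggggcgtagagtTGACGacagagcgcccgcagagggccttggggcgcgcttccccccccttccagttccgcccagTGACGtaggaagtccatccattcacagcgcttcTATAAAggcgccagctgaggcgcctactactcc
Nr4a1: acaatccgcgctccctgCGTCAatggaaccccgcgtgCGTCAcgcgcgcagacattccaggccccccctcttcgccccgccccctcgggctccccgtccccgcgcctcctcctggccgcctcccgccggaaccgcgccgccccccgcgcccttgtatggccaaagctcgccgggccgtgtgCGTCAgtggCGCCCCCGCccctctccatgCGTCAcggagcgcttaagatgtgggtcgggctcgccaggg
Dusp1: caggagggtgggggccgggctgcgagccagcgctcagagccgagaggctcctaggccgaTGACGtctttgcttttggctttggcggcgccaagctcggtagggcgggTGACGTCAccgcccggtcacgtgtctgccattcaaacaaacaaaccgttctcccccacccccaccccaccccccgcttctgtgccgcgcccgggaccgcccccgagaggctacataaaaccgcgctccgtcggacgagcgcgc
Gadd45b: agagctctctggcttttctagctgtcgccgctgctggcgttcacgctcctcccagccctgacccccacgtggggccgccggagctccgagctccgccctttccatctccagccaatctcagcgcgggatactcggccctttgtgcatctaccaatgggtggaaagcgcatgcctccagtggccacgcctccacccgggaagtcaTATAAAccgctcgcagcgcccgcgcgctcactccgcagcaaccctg

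The CRE core TGACG, the part that CREB and ATF proteins recognise, was in 5 of the 8 member windows (Fos, Fosb, Junb, Nr4a1 and Dusp1) and in 17.8% of all 32851 windows of this length. Nr4a1 had 4 of these cores on the minus strand, and Fos had 2 on the plus strand, the nearer of them 66 to 62 bases before the start. The full CRE TGACGTCA, which contains the core on each strand, was in 1 of the 8, Dusp1, 143 to 136 bases before its start, and in 1.55% of all windows. An Egr site, GCGGGGGCG or GCGTGGGCG, was in Fosb and Nr4a1, 2 of the 8, and in 3.06% of all windows. TATAAA was in Fos and Gadd45b, 2 of the 8, and in 12.4% of all windows. CCAAT, left in lower case above, was in 3 of the 8 (Jun, Junb and Gadd45b) and in 33.8%. Neither the AP-1 site TGANTCA nor the CArG box, the site of serum response factor, was in these 8 windows, against 6.75% and 1.47% of all windows. Both strands were searched, and a match is a run of letters only.

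Fos encodes the founding Fos protein, which cannot pair with itself and needs a Jun partner. Its probe (chromosome 12, 86366053 to 86366112, build mm8) had raw intensities of 1291 and 2509 in deficient cells on replicates 1 and 2, and of 728 and 697 in wild-type cells. The wild-type intensities were close to each other, whereas the deficient ones were far apart. These are readings before normalisation, and a higher deficient reading on replicate 2 was not particular to Fos. Jund read 13740 and 37226 in deficient cells, and the brighter Ier2 probe 2623 and 5478. The deficient reading was lower on replicate 2 at Jun (1313 and 1051) and at the dimmer Ier2 probe (1037 and 840). The log2 ratio was -0.70 on replicate 1 and 1.52 on replicate 2, with a mean of 0.41 ± 1.56 (SD, n = 2). The confidence interval ran from -0.41 to 1.23, with a limma adjusted p of 0.592. That interval rests on the variance shared by all genes, not on the spread of Fos, and the ratios of both arrays lie outside it. In bulk RNA such as this, fewer cells of a type and less RNA per cell cannot be told apart. The cause of the opposite signs was not tested.

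The 10 spots of Fos, spread over each array, gave the sign of their mean except for 1 spot on replicate 1. On replicate 1 their ratios ran from -1.10 to 0.31 with a median of -0.68, and after 2 outlier spots were left out from -0.81 to -0.59. On replicate 2 they ran from 1.34 to 1.57 with a median of 1.51. The spots used had an SD of 0.07 on replicate 1 and 0.05 on replicate 2, so the arrays differed by far more than the spots within an array. The spots share 1 hybridised sample and are no replicates of the genotype. The deficient channel was well above background in 1 of the 10 spots on replicate 1 and in 10 of 10 on replicate 2, whereas the wild-type channel was so in 10 of 10 on each.

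Background was uneven between channels and arrays. The median negative control spot read 968 and 707 in the deficient channel on replicates 1 and 2, against 326.5 and 406 in the wild-type channel. The deficient Fos signal was thus 1.33 times that median on replicate 1 and 3.55 times on replicate 2, and the wild-type signal 2.23 and 1.72 times. Over all genes tested, 2332 were like Fos and Fosb in that every channel but the deficient one of replicate 1 was well above background. Of these genes, 99.8% had a ratio below 0 on replicate 1 and 68.8% on replicate 2. The share on replicate 1 largely follows from the grouping, which took genes with a dim deficient channel on that array. The part of background in the Fos ratios was not tested.

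**Figure D2:**
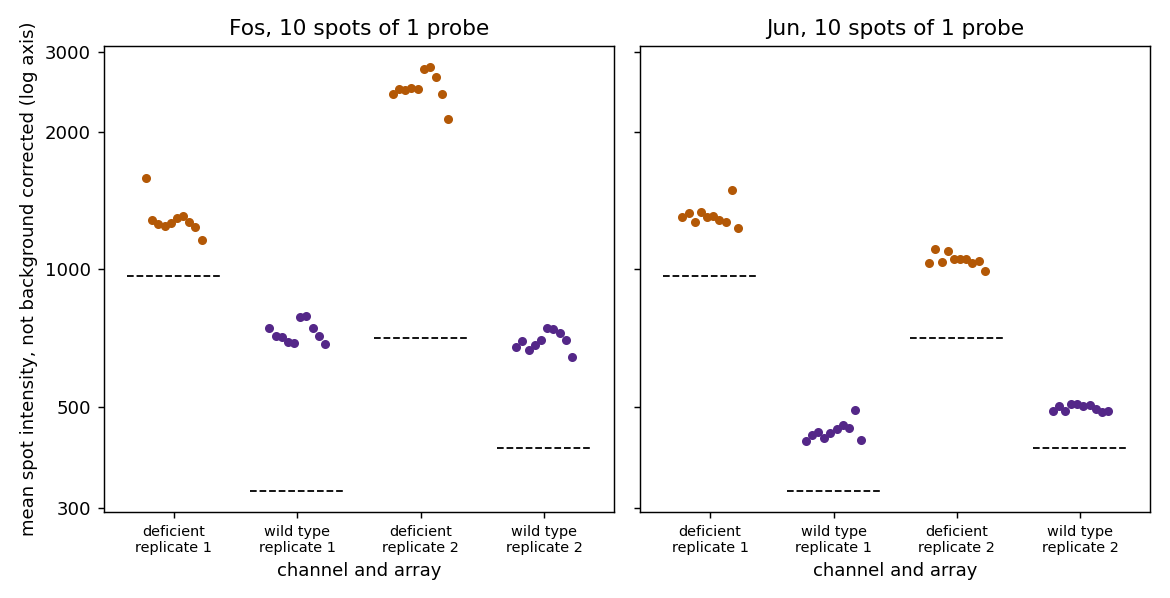
Mean intensity of each of the 10 spots (y axis, log scale, before background correction) of the Fos probe (left panel) and the Jun probe (right panel), by channel and array, with orange points for deficient cells, purple points for wild-type cells and a dashed line at the median negative control spot. The deficient Fos spots have a median of 1267 on replicate 1 and 2482 on replicate 2, against dashed lines at 968 and 707, while the wild-type Fos spots have medians of 715 and 697.

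Fosb encodes another Fos family protein with a transactivating tail. Its probe (chromosome 7, 18461650 to 18461709) read 1185 and 1617 in deficient cells and 573 and 650 in wild-type cells. As with Fos, the ratio was negative on replicate 1 at -0.74 and positive on replicate 2 at 0.76. The mean was 0.01 ± 1.06 (SD, n = 2), with a limma adjusted p of 0.991.

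Jun encodes the protein that can pair with itself or with Fos. The Jun probe (chromosome 4, 94541191 to 94541250) read 1313 and 1051 in deficient cells, against 443 and 497 in wild-type cells. These are 1.36 and 1.49 times the median negative control in the deficient channel, against 1.36 and 1.22 times in the wild-type channel. On replicate 1, 1 of the 10 deficient and 1 of the 10 wild-type spots were well above background, and on replicate 2, 6 deficient and 0 wild-type spots were. The probe was therefore not tested, and its ratios of 0.09 and 0.36 are given as values only.

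Junb encodes a Jun protein with a weaker activating capacity than Jun. Its brighter probe (chromosome 8, 87867087 to 87867146) read 9764 and 30154 in deficient cells and 19326 and 19721 in wild-type cells. The raw deficient readings lay on either side of the wild-type ones, and after normalisation the ratios were -0.18 and 0.20, on either side of 0. The mean of 0.01 ± 0.27 (SD, n = 2) had a limma adjusted p of 0.991. The dimmer probe (87867049 to 87867108), which overlaps the brighter one by 22 bases, read 5468 and 11670 in deficient cells, against 6438 and 7139 in wild-type cells. Its ratios of 0.44 and 0.25 were positive on both arrays, with a limma adjusted p of 0.626 among probes. The probes share sequence and are not independent measures of Junb.

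Jund encodes the Jun protein that many resting cells already hold. Its probe (chromosome 8, 73629526 to 73629585) read 13740 and 37226 in deficient cells, against 14442 and 14215 in wild-type cells. The ratios were 0.77 and 0.98, positive on both arrays and close to each other. The mean of 0.88 ± 0.15 (SD, n = 2) was above 93.3% of all genes tested, with a confidence interval from 0.06 to 1.70 and a limma adjusted p of 0.185. Its direction depended on the scaling: with each array centred on its median in place of loess, the mean was -0.094.

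Egr1 encodes a zinc finger transcription factor that binds GC-rich sites. Its probe (chromosome 18, 34990715 to 34990774) read 2141 and 3804 in deficient cells and 1199 and 1259 in wild-type cells. The ratios were 0.77 and 1.16, both above 0, but with median centring in place of loess the ratio was -0.26 on replicate 1 and the mean 0.37. The mean of 0.97 ± 0.27 (SD, n = 2) was above 94.5% of all genes tested, with an interval from 0.15 to 1.79 and a limma adjusted p of 0.134. Both channels were well above background on each array. When the test was limited to the 5824 genes for which this holds, the Egr1 mean stayed at 0.97 and its limma adjusted p was 0.0199. In that smaller test Jund (limma adjusted p = 0.0392) and Gadd45b (limma adjusted p = 8.96e-05) were also called higher. Thus 3 of the 7 members in it passed, where 9.48% of genes were called higher. Jund and Egr1 passed under none of the other alternatives run.

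Nr4a1 encodes an orphan nuclear receptor, also known as Nur77, that is widely read as a mark of antigen receptor signalling in T cells. Its probe (chromosome 15, 101102674 to 101102733) read 5131 and 18804 in deficient cells, against 6974 and 5799 in wild-type cells. The ratio was 0.21 on replicate 1 and 1.28 on replicate 2, positive on both arrays but uneven. The mean was 0.74 ± 0.75 (SD, n = 2) with a limma adjusted p of 0.284. It was -0.17 when each array was centred on its median.

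Ier2 encodes a small nuclear immediate early protein. Its brighter probe (chromosome 8, 87549656 to 87549690) read 2623 and 5478 in deficient cells and 4306 and 5065 in wild-type cells. The ratios of -0.41 and -0.42 nearly coincided and were the only pair below 0 on both arrays among the 9 members tested. The mean of -0.42 ± 0.0032 (SD, n = 2) had an interval from -1.24 to 0.40 and a limma adjusted p of 0.586, and 33.1% of all genes tested lay below it. With median centring the mean was -1.25. The close agreement of 2 arrays did not enter that p, because limma gave every gene 1 shared variance. The dimmer probe (87549829 to 87549887) was not well above background in either channel on either array and was not tested.

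Dusp1 encodes a nuclear phosphatase of MAP kinases. Its probe (chromosome 17, 26233451 to 26233508) read 1761 and 3063 in deficient cells, against 914.5 and 1142 in wild-type cells. The ratios were 0.49 and 0.96, with a mean of 0.73 ± 0.33 (SD, n = 2) and a limma adjusted p of 0.298. They were positive on both arrays, and the mean lay above 90.3% of all genes tested. With median centring the ratio was -0.22 on replicate 1 and the mean 0.30.

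Gadd45b encodes a stress protein that binds MAP kinase kinases and is induced through NF-κB. Its brighter probe (chromosome 10, 80334751 to 80334810) read 2455 and 5158 in deficient cells and 944 and 1294.5 in wild-type cells. The ratios were 1.43 and 1.61, both above 2-fold. The mean of 1.52 ± 0.12 (SD, n = 2) had an interval from 0.70 to 2.34 and a limma adjusted p of 0.00654, and it was above 97.8% of all genes tested. Across the array, 257 genes lay above 2-fold on both arrays.

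The dimmer Gadd45b probe (80335274 to 80335333) disagreed with the brighter one on replicate 1. It read 1185 and 2383 in deficient cells, against 674 and 753 in wild-type cells, with ratios of -0.96 and 1.25. The deficient channel of this probe was not well above background on replicate 1. Its mean was 0.15 ± 1.56 (SD, n = 2), with a limma adjusted p of 0.860 among probes. With the mean of both probes standing for the gene, Gadd45b was at 0.83 with a limma adjusted p of 0.209. Over 14 alternatives the mean of Gadd45b stayed above 0, from 0.83 to 1.77, and the gene passed in 7 of them, with adjusted p from 8.96e-05 to 0.446.

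The probes whose deficient channel was not above background on replicate 1 were those of Fos and Fosb and the dimmer one of Gadd45b. These 3 ran from -0.96 to -0.70 on replicate 1 and from 0.76 to 1.52 on replicate 2. They were grouped by that dim channel, so ratios below 0 on replicate 1 largely follow from the grouping. The 8 tested probes with both channels above background on each array ran from -0.41 to 1.43 and from -0.42 to 1.61. Signs differed between the arrays in 1 of these 8, the brighter Junb probe.

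**Figure D3:**
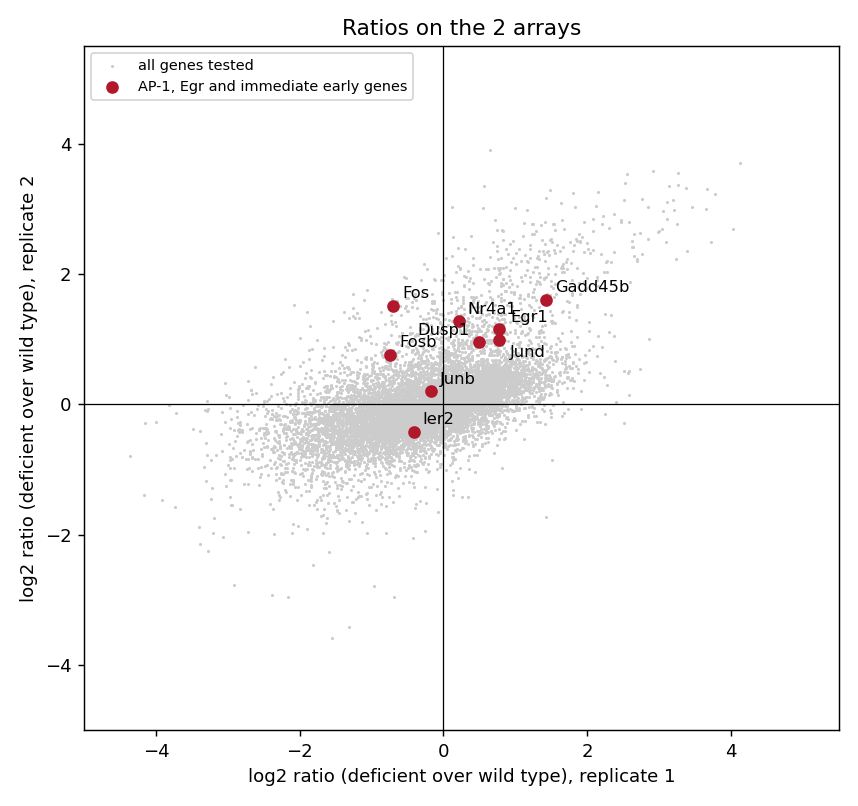
Log2 ratio of deficient over wild-type signal on replicate 1 (x axis) and replicate 2 (y axis), with grey points for the 9931 genes tested and red points for the 9 genes of the class that were tested. Gadd45b lies farthest to the upper right of the red points, Fos and Fosb lie at the upper left, and Ier2 lies below 0 on both axes.

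The median of the 9 members was 0.73, with 0.21 on replicate 1 and 0.98 on replicate 2. Over all genes tested it was -0.12, with -0.22 and -0.01. Among all genes are many whose deficient channel was dim on replicate 1, which had mostly negative ratios there. Of the 9 members, 7 had both channels well above background on both arrays, with medians of 0.49 and 0.98. The 5720 genes of that kind, judged by the brightest probe tested of each, had medians of 0.045 and 0.049. In the test limited to such genes a dimmer probe could stand for its gene, so the count there was 5824. Ratios were higher on replicate 2 than on replicate 1 in 8 of the 9 members, all but Ier2, and in 61.8% of all genes. Opposite signs were found in 3 of the 9 members and in 26.0% of all genes. Centring the arrays on the genes tested adds 0.11 to each mean ratio, and median centring in place of loess moves the median of all genes on replicate 1 to -0.75.

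**Figure D4:**
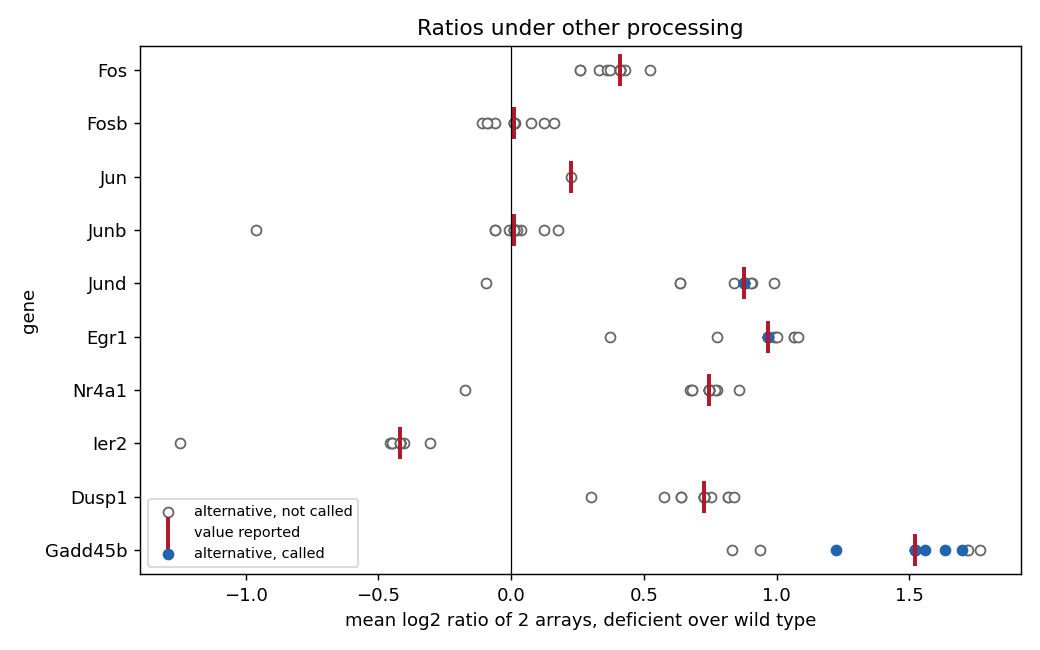
Mean log2 ratio of deficient over wild-type signal (x axis) of each gene of the class (rows) under the settings as reported (red lines; Jun is a value without a test) and under the alternatives run (circles, filled blue where limma's adjusted p was under 0.05), some of which overlap. Gadd45b spans 0.83 to 1.77 and Egr1 0.37 to 1.08, whereas Ier2 spans -1.25 to -0.30; median centring puts Junb, Jund and Nr4a1 below 0.

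The other AP-1 and bZIP partners numbered 30, of which 24 were tested. They had 2 called higher and 0 lower (limma), with 7 higher and 0 lower at an unadjusted p under 0.05, and a median of 0.37. Of all genes, 7.58% were higher and 14.3% lower at that unadjusted p. Batf3, a bZIP factor needed by cross-presenting dendritic cells, rose by 1.72 ± 0.94 (SD, n = 2) with a limma adjusted p of 0.00160. Maf had a mean of 1.16 ± 0.67 and Jdp2 one of 1.15 ± 1.11, and neither passed.

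Of 38 other immediate early genes, 26 were tested, with 1 called higher and 2 lower (limma, 2 and 4 at an unadjusted p under 0.05). Their median was -0.0013, against -0.12 over all genes. Klf4, a zinc finger factor found in monocytes and in quiescent T cells, rose by 1.55 ± 0.12 (SD, n = 2) with a limma adjusted p of 0.00549. Myc, which drives growth and division, fell by 1.57 on the log2 scale with a limma adjusted p of 0.00474, although its deficient channel was well above background on 1 array only. Under 1 of 14 alternatives, the one that asked for both channels above background, another probe stood for Myc and the mean was 0.29. Socs3, an inhibitor of cytokine receptors, fell by 1.44 on the log2 scale with a limma adjusted p of 0.0116. Zfp36 had a mean of -0.99 ± 1.31, Id2 of 0.88 ± 0.46 and Cd69 of -0.86 ± 0.77, and none of these 3 passed.

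Of 25 other feedback inhibitors and Gadd45 genes, 24 were on the array and 12 were tested, with 1 called higher and 0 lower (limma, 1 and 2 at an unadjusted p under 0.05) and a median of 0.09. Rgs2, which shortens G protein signals, rose by 1.71 ± 0.83 (SD, n = 2) with a limma adjusted p of 0.00165. Dusp10 had a mean of -1.06 ± 0.0024, Dusp2 of -0.86 ± 0.15 and Rgs1 of 0.77 ± 0.76, and none of these 3 passed.

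Of 46 genes of MAP kinase, SRF and calcium signalling upstream of the class, 36 were tested. They had 1 called higher and 2 lower (limma, 1 and 5 at an unadjusted p under 0.05) and a median of -0.06. Map2k7, a kinase that activates JNK, did not stand well above background in the deficient channel of either array and was at least 1.28-fold lower there, with a limma adjusted p of 0.00191. Under 1 of 13 alternatives, the one without a filter on dim probes, another probe stood for Map2k7 and the mean was 0.23. Mrtfb, a coactivator of SRF, rose by 1.29 ± 1.41 with a limma adjusted p of 0.0287, with wild-type cells above background on 1 array only. Ppp3cb had a mean of -1.01 ± 1.02 and Elk4 of -0.99 ± 0.52, and neither passed. The pathway genes named as passing were followed through the same alternatives, where the number of calls ranged from 4 of 13 for Mrtfb to 8 of 13 for Map2k7 and 8 of 14 for Batf3, Klf4, Rgs2 and Socs3.

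Markers of other cell types moved with the genotype, although cells had been purified by negative selection. All 18 monocyte and macrophage markers tested of 22 listed were called higher (limma), and their summed normalised signal was 315115 and 312422 in deficient cells, against 48204 and 36027 in wild-type cells. B cell markers were called higher in 7 of 10 tested of 15 listed. Sums were 135445 and 243379 in deficient cells and 54848 and 40016 in wild-type cells. Neutrophil markers were called higher in 3 of 9 tested of 12 listed. Sums were 90039 and 53776 in deficient cells, against 13568 and 11395 in wild-type cells. Dendritic cell markers were called higher in 4 of 5 tested of 10 listed. Batf3, named above, was among these 4, while Xcr1 had a mean of -0.38 and was not called. Sums were 16399 and 31204 in deficient cells and 6606 and 5987 in wild-type cells. Erythroid markers were called higher in 4 of 5 tested of 10 listed. Sums were 276398 and 284275 in deficient cells, against 126105 and 50249 in wild-type cells. Of 16 T cell and CD8 markers tested of 17 listed, 8 were called lower and 0 higher, with 14 and 0 at an unadjusted p under 0.05. Their sums were 122953 and 90077 in deficient cells, against 211442 and 254913 in wild-type cells. The deficient over wild-type ratio of the B cell sum was 2.47 on replicate 1 and 6.08 on replicate 2, that of the macrophage sum 6.54 and 8.67, and that of the T cell sum 0.581 and 0.353. Immediate early genes can be induced in many cell types, and the part of these cells in the ratios above was not tested.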

How the data were processed

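RNA of 2 biological replicates was measured on 2 two-colour Agilent arrays. Per the file headers and the submitters' processing notes, the authors scanned them with Agilent Feature Extraction 9.5.3.1, whose deposited files give each spot's mean intensity, local background intensity, log10 ratio and flags. The deposited table of values holds log10 ratios that differ from the scanner's by at most 0.00500. Amplified RNA was labelled chemically, per the labels' protocols. From the intensities, normexp (offset 50) was applied to mean signal minus median local background, followed by loess on every array separately, in which control spots had weight 0. Outlier spots (255 and 195) were left out and repeated spots averaged. A probe was kept if at least a fraction of 0.5 of its spots were well above background in the same channel of each array. This kept 12622 probes, for 9931 genes. limma 3.58.1 in R 4.3.3 tested the mean ratio against 0, with Benjamini-Hochberg adjustment. Each array pairs the channels, so the test is paired. The number of arrays limits the precision.

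Genes were named through RefSeq accessions for 24375 probes, current or older symbols for 8727 and the array's own name for 8072. All members were named in the text. Of each pathway list, the genes that passed were named, with up to 3 others of largest mean ratio; some items are not reported here. Members and lists were chosen with earlier results of these data known. Where the signal of 1 genotype did not clear background on either array, a named pathway gene has only a bound. The bound is taken against the lowest well-detected signal of each array. The dimmer Bcl11b probe is given by its ratios instead. The fit was run on simulated ratios with independent normal noise of the 1 shared variance. These held no dye, background or array effects, so the run says nothing about such effects. Alternatives covered background correction, normalisation, the filter, the choice of probe, the deposited table, separate channels (statmod 1.5.0) and each array alone.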

Additional observations from a re-analysis of the deposited data

How the results depend on the processing

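With the scanner's own ratios or the deposited table, 50 genes were called higher and 65 lower, and median centring gave 69 and 348. The fitted background surface and the absence of a filter gave 0 and 0 (limma, 820 and 5116 genes at an unadjusted p under 0.05). Both channels above background gave 552 higher and 216 lower, separate channels 26 and 1, and no background correction 189 lower. Members called higher numbered 3 of 7 with both channels above background, where 9.48% of genes were called higher. They numbered 0 with the scanner's ratios, the deposited table, the fitted surface, median centring, no filter, the mean of probes and separate channels. Fosb turned to -0.089 (scanner's ratios), -0.090 (deposited table), -0.061 (fitted surface) and -0.11 (negative-control normexp). Junb turned to -0.060 (scanner's ratios and deposited table), -0.0075 (no background correction) and -0.96 (median centring). Median centring also turned Jund to -0.094 and Nr4a1 to -0.17 and brought the members' median to 0.16. On replicate 1 alone that median was 0.21 and Fos was -0.70, and on replicate 2 alone they were 0.98 and 1.52, with no test. Calls that were lower made up 62.0% as reported, 39.2% without background correction, 83.5% with median centring, 51.0% after centring on the genes tested and 28.1% with both channels above background. The alternative that kept a probe with at least 1 detected spot was chosen after seeing the data. Fos kept opposite signs on the 2 arrays in 13 of 13 alternatives. The causes of these differences were not tested.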
